A study of Mus musculus with 12 samples.

Results

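The experiment described here is the response of kidney collecting duct cells to dDAVP in the presence of a control siRNA, read across all expressed genes. It rests on 6 of the 12 libraries of the series, chosen by their labels: 3 libraries of cells given control siRNA and dDAVP and 3 of cells given control siRNA and vehicle. The cells are mpkCCDc11, an immortalised mouse epithelial line of the cortical collecting duct whose genotype is labelled WT. They were grown on permeable filters for 3 days and kept for a further 24 h without serum and hormones. dDAVP (1-deamino-8-D-arginine vasopressin) was then applied at 1e-09 M to the basolateral side. All 6 libraries carry the control siRNA, and cells were used at passages 11 to 16. The labels list several exposure times and do not tie one to these libraries, so the length of exposure is not known. Nothing in them ties the 3 libraries of a group to separate cultures. The p-values therefore reflect library-to-library spread, and this may be only technical. The remaining 6 libraries, of cells given an siRNA against TAZ and vehicle or dDAVP, entered the fit to estimate the spread and served 1 comparison near the end.

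dDAVP is a vasopressin analogue that acts mainly on the V2 receptor of principal cells. The receptor couples through Gs to adenylyl cyclase, and the cAMP formed activates protein kinase A (PKA), which moves the water channel AQP2 to the apical membrane and, through transcription factors such as CREB, raises transcription of its gene. Phosphodiesterases break cAMP down, anchoring proteins hold PKA in place, and salt-inducible kinases (SIK) keep CREB coactivators out of the nucleus.

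Of 45777 genes in the deposited table, 24656 were detected in 1 or more libraries and 15932 were tested. Levels are given as CPM, counts scaled to the library total of the tested genes, in the order of replicates 1, 2 and 3. Changes are log2 fold changes of dDAVP against vehicle ± SE with 3 libraries per group, and adjusted p-values come from edgeR's quasi-likelihood test with Benjamini-Hochberg adjustment over all genes tested. A gene is said to have risen or fallen when its adjusted p was under 0.05.

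The libraries held 47072921 to 58226090 counts with vehicle and 55231999 to 61505571 with dDAVP. The first principal component of the 6 libraries (34.9% of the variance) set the vehicle libraries, at -29.9 to -18.1, apart from the dDAVP libraries, at 21.6 to 24.3. The second (18.3%) set vehicle replicate 2, at -29.6, apart from vehicle replicates 1 and 3, at 16.6 and 20.9. Without vehicle replicate 2, 2103 genes were called in place of 3058. Without dDAVP replicate 2, at -5.74 on that component, 2172 were called. The 6 fits without 1 control siRNA library gave 2103 to 2685. The libraries carried epithelial and principal cell markers such as Cdh1 (1294, 1236 and 1275 CPM with vehicle), Krt8, Krt18, Gata3, Hsd11b2 and Scnn1a. Of 20 principal cell and collecting duct epithelial markers 3 were not tested, and Aqp4 and Kcnj1 were too low to be tested. Summed over the 11 aquaporins listed, the level was 22.9 to 24.4 CPM with vehicle. The intercalated cell genes Foxi1, Slc26a4 and Kit, the podocyte genes Nphs1 and Wt1, the proximal tubule gene Slc34a1, the loop of Henle gene Slc12a1 and the stromal genes Col3a1, Kdr and Adgre1 were at 0 in all 6 libraries. Summed over the list, 15 fibroblast, endothelial and immune markers reached 10.1 to 10.7 CPM with vehicle and 8.90 to 10.5 CPM with dDAVP. The proximal tubule gene Lrp2 and the intercalated cell genes Atp6v1b1 and Aqp6 were present. Summed, the 10 proximal tubule markers reached 180 to 190 CPM with vehicle and 153 to 169 CPM with dDAVP. The 10 intercalated cell markers reached 132 to 144 CPM with vehicle and 169 to 176 CPM with dDAVP. Of 6 podocyte markers 3 were tested. The 6 summed to 137 to 144 CPM with vehicle and 174 to 183 CPM with dDAVP. Whether differences described below reflect fewer cells of a kind or less RNA per cell cannot be told apart in such bulk samples.

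dDAVP changed 3058 of the 15932 genes, 19.2% of those tested: 1548 rose (9.72%) and 1510 fell (9.48%). These shares are the background for every gene group below. Most changes were small, and large ones ran mainly upward. Of the genes that rose, 160 did so at least 2-fold (1.00% of genes tested) and 36 at least 4-fold, against 42 (0.264%) and 13 of the genes that fell. Rises of less than 1.2-fold numbered 751 and falls of that size 982. Of the 3058 genes, 1689 (10.6% of those tested) were called in the same direction in each of the 6 fits that left out 1 control siRNA library, 878 higher (5.51%) and 811 lower (5.09%). The median change of all genes tested was -0.0012.

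**Figure D1:**
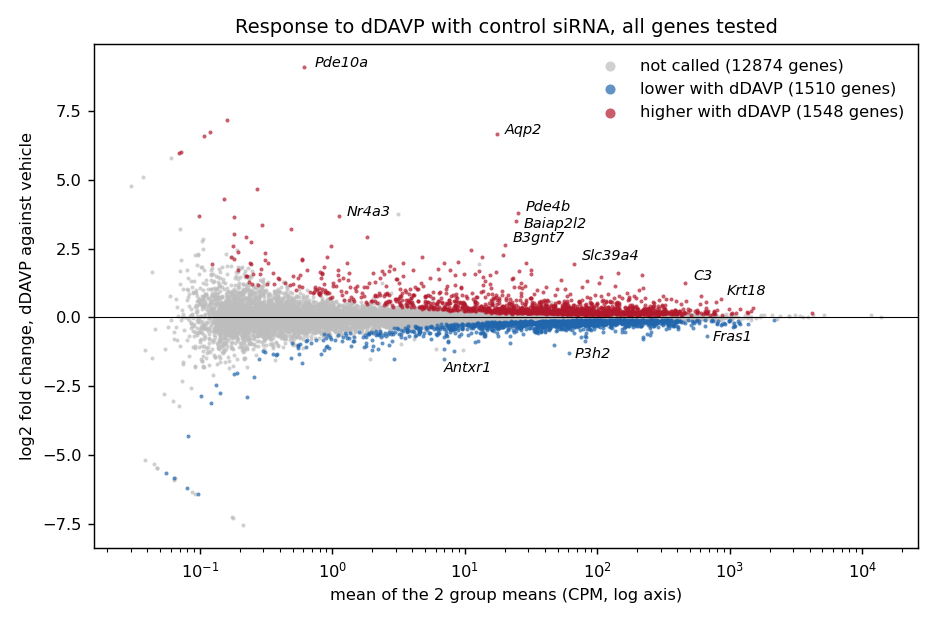
Mean level (x axis, CPM, log scale) against the log2 fold change of dDAVP against vehicle (y axis) for the 15932 genes tested, with 1548 genes called higher in red, 1510 called lower in blue and the others in grey. Aqp2, Pde4b and Baiap2l2 stand far above the rest at their level, while fitted values of genes at 0 in one group, such as Pde10a, depend on the prior count and are no estimate of a fold.

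Aqp2 (gene identifier 11827, chromosome 15 from 99579056 to 99584545 in mm10), the water channel of the apical membrane, was nearly silent with vehicle and well expressed with dDAVP. It was at 0.337, 0.340 and 0.343 CPM in the vehicle libraries and at 44.8, 29.3 and 30.0 CPM in the dDAVP libraries, a change of 6.66 ± 0.34 (adjusted p = 1.23e-07). The vehicle values rested on 19, 16 and 20 counts and the dDAVP values on 2610, 1779 and 1647. dDAVP replicate 1 was the highest, and the lowest dDAVP library stood far above each vehicle library. On the length-corrected scale (TPM, transcripts scaled for length and depth), the mean level went from 0.622 to 64.0 TPM.

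At the receptor and its G proteins, 6 of 17 tested genes rose and 3 fell, of which 3 and 1 were kept in each of the 6 fits without 1 library. Without vehicle replicate 2, 3 rose, and without dDAVP replicate 3, 3 rose and 1 fell. Avpr2, the V2 receptor, went from 29.8, 27.2 and 31.7 CPM to 47.9, 42.8 and 44.3 CPM (0.61 ± 0.07, adjusted p = 9.8e-06). Adcy6, an adenylyl cyclase of the collecting duct, moved from 379.7, 377 and 379.9 CPM to 453, 430.4 and 441 CPM, a change of 0.22 ± 0.03. Both genes were higher in each dDAVP library than in any vehicle library, a separation of the groups that 5619 of the 15932 genes showed in either direction (35.3%). This share is the background wherever groups are said below to be apart. Rgs2, a regulator that shortens G protein signals, rose from a low level (1.24, 1.25 and 1.22 CPM) to 3.09, 3.70 and 3.26 CPM (1.44 ± 0.14). Arrb1, the beta-arrestin that uncouples and internalises receptors, fell from 35.1, 41.2 and 41.0 to 26.3, 29.4 and 26.7 CPM (-0.51 ± 0.06). The inhibitory G protein gene Gnai3 stayed at 306, 310.2 and 289 CPM with vehicle against 304, 303 and 309 CPM with dDAVP (adjusted p = 0.827).

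At the level of PKA, the counts were even, with 5 of 22 genes higher and 5 lower, of which 4 and 4 were kept without any 1 library. Akap12, an anchoring protein that binds PKA and the beta-adrenergic receptor at the plasma membrane, had the largest rise of the list. It was at 109, 111 and 111 CPM with vehicle and 340.2, 315 and 319 CPM with dDAVP (1.56 ± 0.07, adjusted p = 5.09e-10). Prkar2b, a regulatory subunit of PKA, rose from 158, 146 and 142 to 256, 235 and 235 CPM (0.71 ± 0.05). Pkia, an inhibitor of the catalytic subunit, fell from 17.6, 20.7 and 19.8 to 13.3, 13.5 and 14.3 CPM (-0.50 ± 0.08), and Akap5, another anchoring protein, from 6.22, 7.18 and 5.87 to 3.60, 4.23 and 5.12 CPM (-0.57 ± 0.13). The vehicle and dDAVP values of these 4 genes did not overlap. Akap11, among the anchors that were not called, was at 441, 450.3 and 412 CPM and 422, 401 and 411 CPM (adjusted p = 0.296).

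The phosphodiesterases, which degrade the second messenger, held some of the largest changes of the experiment: 4 of 10 tested genes rose and 1 fell, and these calls were kept in each fit without 1 library. Pde4b (gene identifier 18578, chromosome 4 from 102087332 to 102607262), a cAMP-specific enzyme, was at 3.83, 2.89 and 3.40 CPM with vehicle and 49.1, 47.6 and 43.1 CPM with dDAVP (3.78 ± 0.09, adjusted p = 8.03e-15). Pde4d went from 3.67, 3.55 and 3.04 to 19.5, 18.8 and 18.3 CPM (2.47 ± 0.09) and Pde4a from 6.64, 6.71 and 7.28 to 13.1, 12.2 and 10.6 CPM (0.80 ± 0.09). For all 3 genes the lowest dDAVP library stood above the highest vehicle library. Pde10a, an enzyme that degrades both cAMP and cGMP, had 0 counts in the vehicle libraries and 66, 85 and 63 counts with dDAVP. With dDAVP it was at 66.3 times a floor of 3 counts over the vehicle group, at a mean of 1.23 ± 0.149 CPM. This ratio leaves out the counting error of the dDAVP counts. Pde7a, a further cAMP-specific enzyme, was at 202, 206 and 196 CPM and 198, 191 and 197 CPM (adjusted p = 0.538).

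Further down, 5 of 15 genes of CREB factors, their coactivators and the SIK kinases rose and 0 fell, and all 5 were kept in each fit without 1 library. Without vehicle replicate 3, or without dDAVP replicate 2, 1 gene of the list also fell. Sik1, the inducible member of the kinases, went from 47.5, 49.9 and 48.8 CPM to 104, 100.2 and 108 CPM (1.09 ± 0.05, adjusted p = 1.66e-11). Sik2 rose by less, from 85.2, 86.6 and 79.4 to 102, 96.7 and 95.4 CPM (0.23 ± 0.04). Crem, whose short products are cAMP-induced repressors, rose from 4.34, 3.44 and 3.76 to 6.81, 5.59 and 7.77 CPM (0.80 ± 0.12), and the coactivator gene Crtc1 from 108, 108 and 111 to 128, 122.8 and 124 CPM (0.19 ± 0.03). The acetyltransferase gene Ep300 was at 362, 378 and 362 CPM and 368, 368 and 361 CPM (adjusted p = 0.944). The raised members of the pathway include genes that lower cAMP or its output (Pde4 family, Rgs2, Sik1, Crem) beside the receptor and a cyclase.

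**Figure D2:**
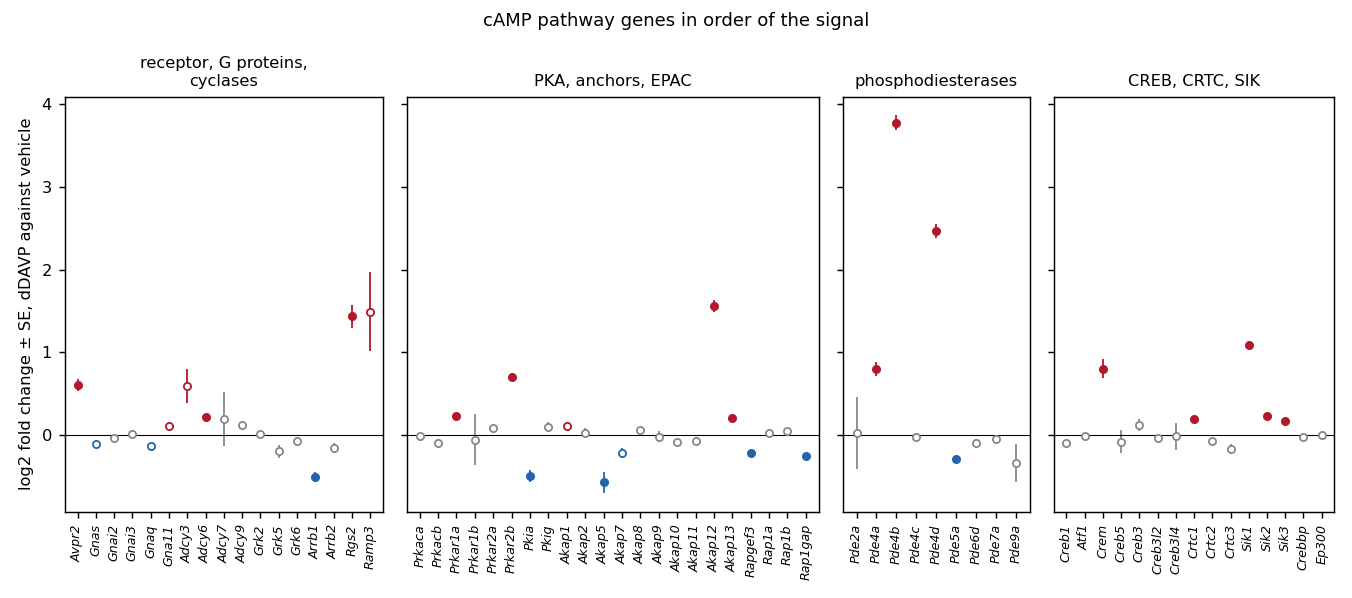
Log2 fold change of dDAVP against vehicle (y axis, ± SE, n = 3 per group) for tested genes of the cAMP pathway in 4 panels that follow the signal, with higher genes in red, lower in blue and uncalled in grey, and filled points for calls kept in all 6 fits that left out 1 library. Pde4b and Pde4d stand highest, and Pde10a, at 0 counts with vehicle, is not drawn.

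Among immediate early factors, the transcription factor genes that respond within minutes to many stimuli, 15 of 29 rose and 3 fell, of which 11 and 3 were kept without any 1 library, with a median change of 0.25 over the list. All 3 orphan nuclear receptors of the NR4A family rose. Nr4a1 was at 11.2, 11.95 and 12.1 CPM with vehicle and 45.2, 46.0 and 47.0 CPM with dDAVP (1.97 ± 0.07, adjusted p = 2.41e-12). Nr4a2 went from 7.60, 8.45 and 7.62 to 24.5, 22.1 and 22.7 CPM (1.55 ± 0.07). Nr4a3 had 14, 4 and 8 counts with vehicle and 126, 124 and 112 with dDAVP. The ratio was 12.9, and counting error alone allowed 8.69 to 20.1 (95% interval). Ier3, an immediate early gene of stress responses, rose from 17.1, 21.2 and 17.5 to 31.5, 36.7 and 35.8 CPM (0.90 ± 0.10), while Jund, of the AP-1 family, was at 253, 238 and 243 and 229, 243 and 238 CPM (adjusted p = 0.456). Feedback genes of the ERK pathway rose in 4 of 17 and fell in 1, and without dDAVP replicate 2 they rose in 2. Dusp10, a MAP kinase phosphatase, went from 3.01, 2.76 and 3.31 to 7.23, 6.20 and 6.59 CPM (1.14 ± 0.11), and Spry1 from 31.1, 33.2 and 32.0 to 41.8, 42.7 and 43.4 CPM (0.41 ± 0.04). Dusp8 fell from 4.54, 5.50 and 4.65 to 2.88, 3.73 and 3.42 CPM (-0.54 ± 0.12).

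CREB binds the cAMP response element TGACGTCA, and also its shorter form TGACG or CGTCA. Both were searched on both strands in the RefSeq promoter windows of build GRCm38.p6, each from 250 bases before to 50 after a gene's start. The palindrome holds a copy of each short form, so every window with TGACGTCA also counts for the short one. Windows existed for 116 of the 160 genes raised at least 2-fold, and 2 of them (1.72%) held TGACGTCA. The share was 3.84% of 1199 genes that rose, 2.98% of 1173 that fell and 3.38% of the 11562 tested genes with a window. The short form was in 25.9% of the genes raised at least 2-fold, 37.2% of those that rose, 30.6% of those that fell and 33.7% of those tested. Of all 32851 windows, 1.79% held TGACGTCA and 20.8% the short form. These are descriptions of the letters in the windows, and no test was made.

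Of 117 raised genes named by rule, 88 had a window and 3 held TGACGTCA: Abcg2, an exporter of drugs and urate, Ldha, lactate dehydrogenase A, and Rpl27a, a ribosomal protein gene. These are shown with the promoters of Aqp2, the gene of most interest in this cell, and of Nr4a1 and Nr4a3. The last 2 were chosen after their motif counts were seen: each window held 4 short motifs, and 0.231% of all windows held 4 or more. Other strongly raised genes held neither form in their windows: Pde4d, B3gnt7, Nipal1 and Aqp5 in 1 window each and Pde10a in 2. Pde4b held the short form in 1 of its 4 windows and TGACGTCA in 0. The 250 bases before each start are given on the plus strand, which is the strand of each of these genes, with TGACGTCA in capitals for Abcg2, Ldha and Rpl27a and the short form in capitals for the others.
Abcg2 (chr6:58640296-58640545): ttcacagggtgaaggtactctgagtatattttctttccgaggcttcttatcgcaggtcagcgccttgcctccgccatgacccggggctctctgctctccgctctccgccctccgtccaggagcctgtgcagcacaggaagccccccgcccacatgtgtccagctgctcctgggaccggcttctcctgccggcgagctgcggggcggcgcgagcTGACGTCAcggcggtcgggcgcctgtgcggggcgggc
Ldha (chr7:46845554-46845803): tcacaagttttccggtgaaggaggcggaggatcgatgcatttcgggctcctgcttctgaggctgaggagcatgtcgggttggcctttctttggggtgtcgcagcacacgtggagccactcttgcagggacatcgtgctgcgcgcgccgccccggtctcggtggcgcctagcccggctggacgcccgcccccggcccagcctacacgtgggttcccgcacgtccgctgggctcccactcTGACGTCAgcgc
Rpl27a (chr7:109518945-109519194): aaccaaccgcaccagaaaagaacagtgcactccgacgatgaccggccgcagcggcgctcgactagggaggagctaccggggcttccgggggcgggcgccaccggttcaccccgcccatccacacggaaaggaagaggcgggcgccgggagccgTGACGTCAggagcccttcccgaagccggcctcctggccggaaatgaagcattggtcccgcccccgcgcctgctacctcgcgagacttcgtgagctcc
Aqp2 (chr15:99578806-99579055): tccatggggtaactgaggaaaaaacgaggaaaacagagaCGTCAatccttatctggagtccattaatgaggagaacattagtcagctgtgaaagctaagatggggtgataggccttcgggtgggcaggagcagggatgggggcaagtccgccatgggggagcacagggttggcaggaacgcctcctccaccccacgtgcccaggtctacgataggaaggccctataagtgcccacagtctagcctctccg
Nr4a1 (chr15:101266596-101266845): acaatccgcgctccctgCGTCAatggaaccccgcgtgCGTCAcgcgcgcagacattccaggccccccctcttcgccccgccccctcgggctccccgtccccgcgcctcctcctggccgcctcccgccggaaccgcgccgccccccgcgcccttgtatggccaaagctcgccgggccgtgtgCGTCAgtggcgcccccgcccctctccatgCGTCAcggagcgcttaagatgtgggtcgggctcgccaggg
Nr4a3 (chr4:48045055-48045304): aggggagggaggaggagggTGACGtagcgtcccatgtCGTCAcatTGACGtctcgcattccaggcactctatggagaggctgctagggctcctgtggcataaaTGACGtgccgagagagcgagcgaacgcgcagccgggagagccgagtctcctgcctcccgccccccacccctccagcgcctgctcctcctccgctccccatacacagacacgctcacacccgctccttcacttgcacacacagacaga
TGACGTCA began 37 bases before the start shown for Abcg2, 12 before that for Ldha and 97 before that of Rpl27a. Abcg2 has 3 windows and Ldha 2, for different starts, and in each gene the window shown is the only 1 of them that held TGACGTCA. Aqp2 held no TGACGTCA in its window and 1 CGTCA, 211 bases before the start. Nr4a1 held CGTCA at 233, 213, 69 and 40 bases before its start. Nr4a3 held 3 TGACG and 1 CGTCA, at 231, 213, 205 and 147 bases before the start. Crem, Sik1, Baiap2l2, Slc39a4 and Akap12 had 0 windows in the set searched, so their promoters were not analysed here.

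Water channels beyond Aqp2 rose too, with 4 of 5 tested aquaporins higher, 3 of them kept in each fit without 1 library, and 0 lower. Aqp5, a water channel of glands and lung, went from 4.91, 4.33 and 5.22 CPM to 21.97, 21.3 and 23.6 CPM (2.20 ± 0.11, adjusted p = 1.03e-10). Aqp6, a channel of intercalated cell vesicles, went from 17.2, 17.2 and 18.0 to 38.0, 36.2 and 36.6 CPM (1.08 ± 0.11). Neither gene's groups overlapped. In TPM, Aqp2 passed both with dDAVP, at 64.0 against 37.4 for Aqp5 and 35.7 for Aqp6, having been below both with vehicle. Aqp11 was at 0.160 ± 0.103 and 0.379 ± 0.0732 CPM (SD, n = 3) and was not called (adjusted p = 0.0968). Slc14a2, the urea transporter of the inner medullary duct, was outside the rule for named genes and is given after its values were seen. It had 0 counts with vehicle and 9, 7 and 8 with dDAVP, or 7.44 times a floor of 3 counts over the vehicle group. The counting error of the few dDAVP counts is not in that ratio.

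**Figure D3:**
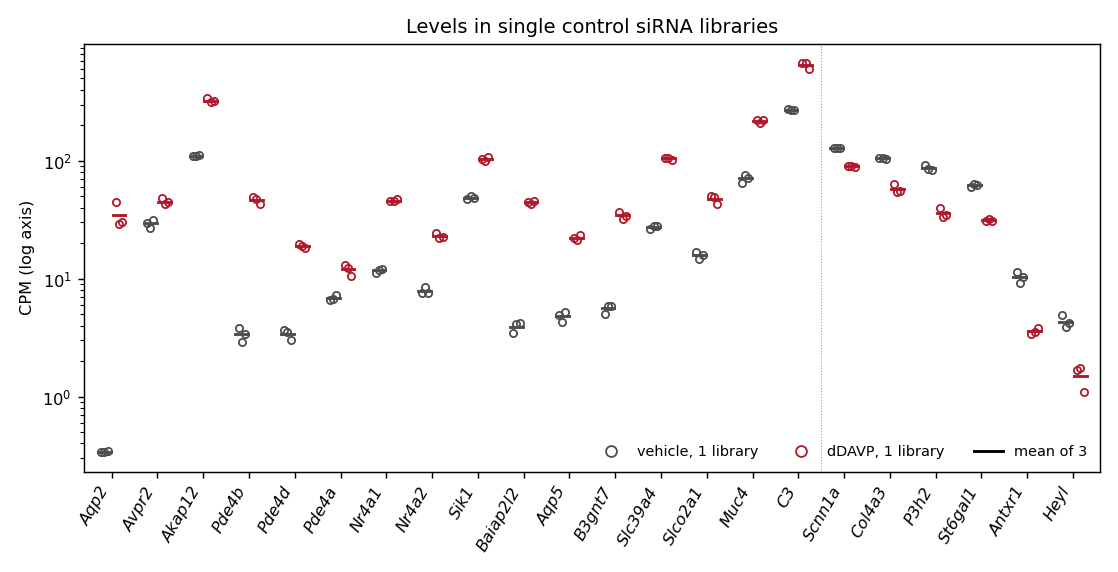
Level of 22 genes in each control siRNA library (y axis, CPM, log scale), with 3 vehicle libraries in grey, 3 dDAVP libraries in red and the mean as a bar. Genes left of the dotted line rose and those right of it fell. The vehicle and dDAVP libraries do not overlap for any of the 22, at 0.34 against 29.3 to 44.8 CPM for Aqp2. The 22 were picked among called genes, and 35.3% of all genes tested show such a separation.

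Of 20 genes of the epithelial sodium channel and its regulators 4 rose and 2 fell, of which 3 and 2 were kept without any 1 library. Scnn1a, the alpha subunit, fell from 128, 128 and 129 CPM to 91.2, 90.2 and 88.9 CPM (-0.51 ± 0.03, adjusted p = 2.34e-09), with a spread between libraries far smaller than the difference. Nedd4l, the ubiquitin ligase that withdraws the channel from the membrane, rose from 157, 162 and 158 to 218, 204 and 203 CPM (0.39 ± 0.04). Wnk4, a kinase of salt transport, rose from 78.0, 71.7 and 75.0 to 97.3, 91.4 and 91.1 CPM (0.32 ± 0.04), and Usp2, a deubiquitinase, from 8.47, 9.02 and 8.11 to 11.6, 11.5 and 11.8 CPM (0.45 ± 0.08). Of 11 sodium pump subunits and FXYD regulators, 5 rose and 0 fell, and all 5 were kept in each fit without 1 library. Atp1b1, the beta subunit, went from 465, 425 and 450.0 to 773, 778 and 766 CPM (0.79 ± 0.04). The pump regulator Fxyd2 rose from 16.8, 12.8 and 17.1 to 40.2, 36.5 and 34.3 CPM (1.25 ± 0.10), Fxyd6 from 0.691, 0.594 and 0.893 to 1.66, 2.25 and 1.77 CPM (1.37 ± 0.26) and Fxyd3 from 2.89, 2.48 and 3.59 to 4.55, 4.90 and 4.11 CPM (0.59 ± 0.13).

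Potassium channel genes rose in 5 of 24 tested members and fell in 1, with 3 and 1 kept without any 1 library, and 2 fell without vehicle replicate 3. The background channels Kcnk1 (229.7, 219 and 227 to 289, 298 and 285 CPM, 0.37 ± 0.03) and Kcnk5 (35.5, 35.5 and 38.6 to 48.4, 48.5 and 49.8 CPM, 0.42 ± 0.06) rose, as did Kcnq1 (0.47 ± 0.06). Kcnn1, a calcium-activated channel, fell from 15.49, 18.6 and 17.2 to 10.8, 10.5 and 10.9 CPM (-0.67 ± 0.09). Of 36 chloride and calcium channel genes 7 fell, 6 of them kept, and 4 rose. Without vehicle replicate 1, vehicle replicate 2, dDAVP replicate 2 or dDAVP replicate 3, 2 were higher. The chloride channel gene Clcn2 changed by -0.37 ± 0.08 and the T-type calcium channel Cacna1g by -0.34 ± 0.04. Trpv4, a calcium channel opened by cell swelling, rose from 221, 225 and 224 to 312, 296 and 295 CPM (0.43 ± 0.03).

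Solute carriers rose in 45 of 235 tested members and fell in 22, with 34 and 11 kept without any 1 library. The share of higher members was 19.1%, against 9.72% of all genes. Slc39a4, the zinc importer ZIP4, rose evenly across libraries, from 26.3, 28.0 and 28.1 CPM to 106, 105 and 102 CPM (1.93 ± 0.05, adjusted p = 3.54e-14). Slc39a14, the importer ZIP14, went from 171, 174 and 181 to 298, 278 and 281 CPM (0.70 ± 0.04). The metallothioneins, which bind zinc, rose with them: Mt2 from 55.1, 55.3 and 60.5 to 147, 176 and 147 CPM (1.46 ± 0.07) and Mt1 from 139, 131 and 159 to 304, 322 and 276 CPM (1.07 ± 0.08). Their reads may be shared because the genes are alike. Over 22 metallothionein and zinc transporter genes, 5 rose and 2 fell, and the median was -0.0025. Without vehicle replicate 1 or 2, or without dDAVP replicate 1 or 2, 1 fell. Slc39a9 was at 204, 199 and 208 and 194, 197 and 192 CPM (adjusted p = 0.116).

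Among other carriers, Slco2a1, which takes prostaglandins into cells, rose from 16.9, 14.8 and 15.7 CPM to 50.4, 49.5 and 43.0 CPM (1.59 ± 0.09). Slc28a3, a sodium-coupled nucleoside transporter, went from 1.06, 1.44 and 1.48 to 4.91, 4.87 and 3.62 CPM (1.75 ± 0.20), and Slc5a3, which brings in the osmolyte myo-inositol, from 65.1, 61.8 and 62.6 to 114, 102 and 99.3 CPM (0.73 ± 0.06). Of 29 ABC transporters 5 rose and 2 fell. Abcc3, an exporter of conjugated anions, rose from 7.90, 8.13 and 8.29 to 19.7, 21.6 and 19.6 CPM (1.32 ± 0.07), and Abcg2 from 2.85, 2.42 and 2.80 to 5.29, 4.33 and 4.84 CPM (0.84 ± 0.13). Abca2 fell from 286, 287 and 299 to 242, 227 and 235 CPM (-0.31 ± 0.03).

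Of 20 receptors and enzymes whose products oppose vasopressin in the collecting duct, 4 rose and 2 fell, and without vehicle replicate 1, 2 rose. The falls numbered 1 in each fit without 1 of the 5 other libraries. Ptgs2, the inducible cyclooxygenase that starts prostaglandin synthesis, went from 17.8, 19.1 and 17.1 CPM to 41.3, 39.1 and 37.4 CPM (1.13 ± 0.07, adjusted p = 4.53e-09). Adora1, an adenosine receptor that couples to the inhibitory G protein, went from 139.8, 136 and 135.03 to 287, 269 and 264 CPM (1.00 ± 0.05). P2ry2, a nucleotide receptor, fell from 31.0, 29.5 and 30.2 to 24.0, 24.7 and 25.5 CPM (-0.29 ± 0.05). In each of these 3 genes the groups were apart.

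At the apical surface, Baiap2l2, an I-BAR protein that bends membranes into protrusions, rose from 3.44, 4.12 and 4.17 CPM to 45.1, 43.4 and 45.5 CPM (3.51 ± 0.10, adjusted p = 3.85e-13). It belongs to a list of 24 tested genes of microvilli, ERM linkers and I-BAR proteins, of which 10 rose and 4 fell, with 7 and 3 kept without any 1 library. Prom1, a microvillus membrane protein, rose from 139.7, 130.5 and 131 to 218, 207 and 202 CPM (0.64 ± 0.06). Podxl, the sialomucin podocalyxin, fell from 91.4, 94.96 and 93.1 to 56.7, 54.2 and 59.4 CPM (-0.71 ± 0.04) and the linker gene Msn from 274, 279 and 281 to 216, 225 and 224 CPM (-0.33 ± 0.04), while Rdx was at 302, 294 and 278 and 302, 300.3 and 299 CPM (adjusted p = 0.479). Synpo, an actin-associated protein best known from podocytes, rose from 45.4, 48.7 and 48.6 to 125, 119 and 117 CPM (1.34 ± 0.05), with the defining podocyte gene Nphs1 at 0. Of 12 gasdermins and mucins 6 rose and 0 fell, with 5 kept. Muc4, a membrane mucin, went from 64.9, 76.3 and 72.1 to 221, 209 and 222 CPM (1.61 ± 0.17). Gsdmc2 (1.39 ± 0.21), Gsdmc3 (1.41 ± 0.21) and Gsdmc4 (1.72 ± 0.21) also rose, but they are near-identical neighbours whose reads may be shared.

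Epithelial keratins rose in 5 of 13 tested members and fell in 0, with 4 kept, and their summed level was 1819 to 1931 CPM with vehicle and 2627 to 2779 CPM with dDAVP. Krt18 and Krt8, the paired keratins of simple epithelia, went from 659, 647 and 683 to 1050.1, 1082 and 1028 CPM (0.67 ± 0.04) and from 643, 622 and 658 to 936, 975 and 917 CPM (0.56 ± 0.05). Both were among the 8 stable rises with the largest differences in CPM. Krt19 went from 137, 134 and 145 to 243, 248.9 and 229 CPM (0.79 ± 0.05) and Krt23, at a low level, from 1.08, 1.85 and 1.27 to 5.92, 5.26 and 5.19 CPM (1.98 ± 0.23). Krt7 was at 385, 359 and 391 and 401, 412 and 393 CPM (adjusted p = 0.304).

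Cornified envelope and desmosome genes were split, with 5 of 18 higher and 4 lower, and without dDAVP replicate 2 the higher genes numbered 2. The small proline-rich genes Sprr2g (1.22, 1.76 and 2.11 to 8.19, 7.98 and 7.41 CPM, 2.21 ± 0.17) and Sprr1a (1.54, 1.72 and 1.75 to 4.45, 4.39 and 4.39 CPM, 1.40 ± 0.19) rose, with reads that may be shared within the family. The desmosome genes Dsp (1495, 1482 and 1458 to 1301, 1264 and 1197 CPM, -0.24 ± 0.04) and Dsc2 (56.3, 57.0 and 56.9 to 42.4, 46.1 and 44.3 CPM, -0.36 ± 0.04) and the plaque gene Evpl (-0.24 ± 0.04) fell. Jup, plakoglobin, was at 407, 409.6 and 428 and 440.0, 429 and 413 CPM (adjusted p = 0.448). Claudins and tight junction scaffolds fell in 9 of 21 members and rose in 4. The falls numbered 5 without vehicle replicate 3, 4 without dDAVP replicate 1 and 5 without dDAVP replicate 2. Cldn1, a sealing claudin, fell from 5.42, 4.50 and 5.48 to 2.99, 3.55 and 3.20 CPM (-0.66 ± 0.12), and Marveld2, of tricellular junctions, by 0.24 on the log2 scale. Cldn2, which forms a cation and water pore, rose from 1.35, 0.594 and 1.39 to 2.68, 2.70 and 2.60 CPM (1.24 ± 0.21), and Tjp3, a scaffold, from 162, 159 and 163 to 213, 209 and 214 CPM (0.39 ± 0.03). Tjp1 was at 345, 359 and 343 and 352, 346 and 339.7 CPM (adjusted p = 0.852).

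On the basal side, of 25 tested basement membrane collagens, laminins and collagen hydroxylases, 15 fell and 0 rose, and 13 of the falls were kept without any 1 library. The median was -0.23, and the summed level was 6687 to 6964 CPM with vehicle and 5448 to 5724 CPM with dDAVP. Col4a3 and Col4a4, whose chains form the mature network of kidney tubules and glomeruli, fell from 106, 105 and 104 to 63.1, 54.2 and 55.3 CPM (-0.86 ± 0.05, adjusted p = 1.08e-09) and from 284, 288 and 271 to 170.4, 159 and 161 CPM (-0.78 ± 0.04). The ubiquitous chain Col4a2 fell from 258, 297 and 271 to 175, 169 and 167 CPM (-0.69 ± 0.04). P3h2, which hydroxylates prolines of collagen IV, fell from 91.3, 85.1 and 84.4 to 39.5, 33.3 and 34.4 CPM (-1.28 ± 0.06). For each of these genes the highest dDAVP library lay below the lowest vehicle library. Col18a1 was at 719.9, 758 and 745 and 750.1, 731 and 703 CPM (adjusted p = 0.641). Outside the list, Fras1 and Frem2, extracellular matrix proteins that act together under epithelia, fell from 816, 848 and 826 to 551, 507 and 502 CPM (-0.67 ± 0.04) and from 1205, 1162 and 1196 to 1003, 913 and 898 CPM (-0.34 ± 0.05). They and Agrn, the heparan sulphate proteoglycan agrin (-0.26 ± 0.03), were among the 8 stable falls with the largest differences in CPM.

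**Figure D4:**
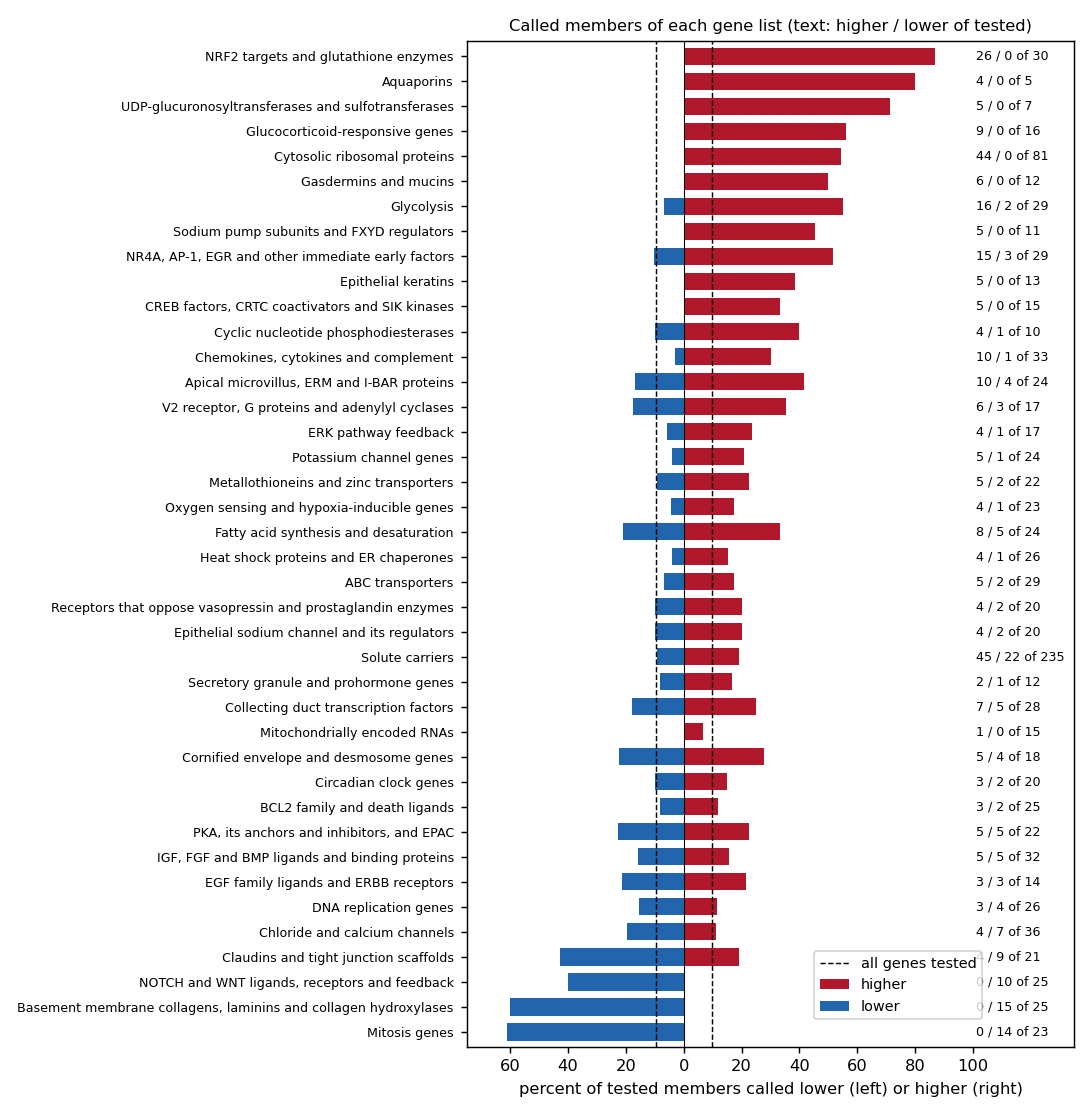
Percent of tested members called higher (red, right) and lower (blue, left) with dDAVP in each gene list, with the counts beside the bars and the shares of all genes tested, 9.72% and 9.48%, as dashed lines. The NRF2 and glutathione genes reach furthest to the right, with 26 of 30 higher, and the mitosis and basement membrane genes furthest to the left, with 14 of 23 and 15 of 25 lower.

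Of 25 NOTCH and WNT genes 10 fell, 8 of them kept, and 0 rose, with a median of -0.15. Heyl, a NOTCH target, fell from 4.89, 3.91 and 4.17 CPM to 1.66, 1.74 and 1.09 CPM (-1.52 ± 0.17). The NOTCH ligands Jag1 (41.5, 41.3 and 43.7 to 31.6, 26.8 and 27.5 CPM, -0.56 ± 0.06) and Dll1 (31.5, 29.3 and 31.1 to 23.2, 22.5 and 21.05 CPM, -0.46 ± 0.06) and Wnt7a (38.7, 40.5 and 42.0 to 27.9, 29.6 and 30.4 CPM, -0.46 ± 0.07) fell. Hes1, another NOTCH target, was at 65.1, 64.7 and 60.2 and 58.1, 61.3 and 57.4 CPM and was not called (adjusted p = 0.118), except without vehicle replicate 3 (0.0448).

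Of 28 transcription factors of the collecting duct 7 rose and 5 fell, and without vehicle replicate 2 they fell in 3. Tfap2a (148, 150.2 and 149 to 203, 199 and 202 CPM, 0.43 ± 0.04), Elf3 (204, 188 and 196 to 252, 253 and 245 CPM, 0.35 ± 0.04) and Grhl1 (0.49 ± 0.08), factors of epithelial differentiation, rose. Lhx4 fell from 3.30, 3.21 and 2.59 to 1.53, 1.02 and 1.602 CPM (-1.13 ± 0.17). Nfat5, the factor that responds to high tonicity, fell from 1209, 1248 and 1139 to 1018, 918 and 968 CPM (-0.31 ± 0.05, adjusted p = 0.000366). Ehf was at 519.8, 489 and 481 and 538, 523 and 514 CPM (adjusted p = 0.264).

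In metabolism, NRF2 targets and glutathione enzymes rose in 26 of 30 tested members (86.7%, against 9.72% of all genes) and fell in 0. Of these rises 22 were kept without any 1 library, the median was 0.37, and the summed level was 2673 to 2864 CPM with vehicle and 3479.8 to 3592 CPM with dDAVP. Gsta4, which conjugates lipid aldehydes to glutathione, went from 9.83, 7.56 and 8.09 CPM to 18.0, 19.2 and 20.1 CPM (1.17 ± 0.11, adjusted p = 3.23e-07). Cbr3, a carbonyl reductase, went from 3.65, 3.67 and 4.02 to 4.91, 7.07 and 6.79 CPM (0.73 ± 0.13). Srxn1, which restores peroxiredoxins, went from 23.1, 23.01 and 24.8 to 38.7, 40.1 and 38.2 CPM (0.72 ± 0.05), and Osgin1 from 50.7, 43.5 and 55.0 to 80.8, 76.3 and 74.2 CPM (0.63 ± 0.07). Keap1, the repressor of NRF2, was at 89.5, 86.8 and 86.6 and 93.4, 91.2 and 91.8 CPM (adjusted p = 0.138). Of 7 glucuronosyltransferases and sulfotransferases 5 rose and 0 fell, and DESeq2 called 3. Ugt1a6a had 18, 18 and 32 counts with vehicle and 215, 176 and 170 with dDAVP. The ratio was 7.67, and counting error alone allowed 5.96 to 10.02 (95% interval). Ugt1a genes share their last exons, so this value is uncertain. Sult1d1 went from 2.27, 1.57 and 1.48 to 6.13, 4.94 and 4.21 CPM (1.52 ± 0.22) and Sult1c2 from 7.44, 5.39 and 7.18 to 11.8, 10.2 and 10.41 CPM (0.69 ± 0.12).

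Of 29 glycolysis genes 16 rose and 2 fell, with 10 and 1 kept and a median of 0.19. Without vehicle replicate 1, or without dDAVP replicate 2, 1 fell. Ldha went from 295, 306 and 346 CPM to 437, 504 and 482 CPM (0.59 ± 0.06, adjusted p = 7.75e-07) and Aldoa, an aldolase, from 328, 349 and 405 to 465, 541 and 493 CPM (0.47 ± 0.06). Hk2 (0.41 ± 0.06) and Pgk1 (0.33 ± 0.07) rose, though Pgk1 had an adjusted p of 0.0773 in a fit of the control siRNA libraries alone, while Hk1 was at 319.7, 319 and 331 and 342, 341 and 321 CPM (adjusted p = 0.322). Genes of oxygen sensing and hypoxia rose in 4 of 23 and fell in 1, which was lost without vehicle replicate 1 or 3 or without any 1 dDAVP library. They included Ndrg1 (124, 129.9 and 144 to 206, 218 and 213 CPM, 0.68 ± 0.06), Vegfa (24.5, 27.7 and 28.2 to 34.8, 36.8 and 41.9 CPM, 0.50 ± 0.07) and Car12 (0.72 ± 0.07). Hif1a itself was at 414, 400.0 and 386 and 416, 398 and 398 CPM (adjusted p = 0.888). Fatty acid synthesis and desaturation genes rose in 8 of 24 and fell in 5, with 6 and 1 kept. The falls numbered 3 without vehicle replicate 2, vehicle replicate 3 or dDAVP replicate 3. Elovl6, which lengthens palmitate, rose from 225, 222 and 211 to 326, 304 and 311 CPM (0.52 ± 0.05), Fads2, a desaturase, by 0.47 ± 0.03, and Dgat2, of triglyceride synthesis, by 0.76 ± 0.08. Acly was at 330.4, 330.5 and 328 and 318, 326 and 315 CPM (adjusted p = 0.456).

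Of 16 glucocorticoid-responsive genes 9 rose and 0 fell, with 6 kept, and 1 fell in DESeq2 or with the control siRNA libraries alone. Cebpd (1.45, 1.06 and 1.099 to 3.19, 4.21 and 3.55 CPM, 1.59 ± 0.15) and Cebpb (17.1, 16.9 and 16.4 to 26.0, 27.7 and 26.7 CPM, 0.67 ± 0.07), factors of the C/EBP family, led them, and Mt2 is in this list too. Fkbp5, a common marker of glucocorticoid action, was at 102, 107 and 100.4 CPM with vehicle and 104, 103 and 97.0 CPM with dDAVP (adjusted p = 0.757). Of 20 clock genes 3 rose and 2 fell, and DESeq2 called 5 higher. The falls numbered 0 without vehicle replicate 1 or dDAVP replicate 2 and 1 without vehicle replicate 2 or 3 or dDAVP replicate 3. Per2 went from 69.3, 68.9 and 68.9 to 93.9, 90.3 and 95.5 CPM (0.43 ± 0.05) and Per1 from 23.9, 21.9 and 23.8 to 28.1, 26.7 and 28.0 CPM (0.25 ± 0.05), both being negative arms of the clock.

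Among secreted and surface signals, 10 of 33 chemokine, cytokine and complement genes rose and 1 fell, with 7 and 1 kept, and 2 fell without dDAVP replicate 1. C3, the central complement protein, went from 273, 269 and 270.4 CPM to 669, 670.1 and 605 CPM (1.26 ± 0.06, adjusted p = 9.68e-10). Cfb, complement factor B, went from 4.15, 4.35 and 4.31 to 12.98, 12.5 and 12.1 CPM (1.55 ± 0.10). Cxcl5, a neutrophil chemokine, went from 11.5, 13.7 and 11.4 to 39.8, 39.0 and 38.8 CPM (1.69 ± 0.13) and Nod2, a sensor of bacterial peptides, from 3.40, 3.72 and 3.37 to 14.2, 14.7 and 13.9 CPM (2.03 ± 0.08). In these 4 genes no dDAVP library came near a vehicle library. The immune cell marker Ptprc was not called, at 0.0637 CPM with vehicle and 0.0972 CPM with dDAVP. Lif was at 24.8, 27.5 and 25.2 and 24.3, 26.0 and 30.8 CPM (adjusted p = 0.713).

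EGF family genes rose in 3 of 14 and fell in 3. The receptor Egfr rose from 99.3, 102 and 97.5 to 157, 152 and 146 CPM (0.61 ± 0.05) and its ligand Btc from 11.5, 9.04 and 11.4 to 21.8, 14.7 and 16.97 CPM (0.74 ± 0.16), while the ligands Tgfa (99.1, 98.0 and 101.5 to 88.6, 84.4 and 85.0 CPM, -0.21 ± 0.04) and Nrg1 (-0.39 ± 0.07) fell. Of 32 IGF, FGF and BMP genes 5 rose and 5 fell. Bmp3 went from 5.78, 4.54 and 4.69 to 15.4, 13.6 and 15.4 CPM (1.56 ± 0.11) and the stress cytokine Gdf15 from 13.04, 13.3 and 11.2 to 22.5, 21.03 and 21.8 CPM (0.80 ± 0.07). Fgf18 fell from 9.37, 9.06 and 10.37 to 4.19, 4.18 and 4.75 CPM (-1.14 ± 0.10) and Fgf5 from 3.92, 3.97 and 2.85 to 1.56, 1.63 and 2.18 CPM (-0.997 ± 0.196). Igfbp7 was at 287, 264 and 301 and 279, 287 and 288 CPM (adjusted p = 0.97). Scg5, a secretory granule chaperone, rose from 0.567, 0.382 and 0.584 to 1.49, 2.48 and 2.20 CPM (1.99 ± 0.26) in a list of 12 with 2 higher and 1 lower. Without dDAVP replicate 1 the higher genes of the list numbered 2 and without any other library 1, and without dDAVP replicate 3 none was lower.

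Mitosis genes fell in 14 of 23 members (60.9%, against 9.48% of all genes) and rose in 0, with 11 falls kept and a median of -0.19. Top2a, the topoisomerase of dividing cells, went from 923, 961 and 911 CPM to 762, 793 and 772 CPM (-0.27 ± 0.03, adjusted p = 4.77e-06). Bub1 and Ttk, kinases of the spindle checkpoint, changed by -0.32 ± 0.05 and -0.28 ± 0.06, and Aurkb, of the chromosomal passenger complex, by -0.28 ± 0.04. These are falls of less than 1.5-fold with groups that do not overlap, as in 35.3% of all genes tested. Cenpf, at 408, 438 and 375 and 356, 351 and 365 CPM, missed the threshold (adjusted p = 0.0739), but passed in a fit of the control siRNA libraries alone (0.00728) and without vehicle replicate 3 (0.0235). Of 26 DNA replication genes 3 rose and 4 fell, and without dDAVP replicate 2, 1 rose. Pole, a replicative polymerase, fell from 279, 298 and 290.2 to 253, 248.98 and 248 CPM (-0.21 ± 0.03), as did the repressors E2f7 (-0.25 ± 0.03) and E2f8 (-0.21 ± 0.04), and E2f2 rose from 11.9, 11.1 and 12.7 to 14.9, 16.4 and 15.6 CPM (0.39 ± 0.07). Mcm7 was at 614, 588 and 627 and 591, 606 and 601 CPM (adjusted p = 0.645).

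Of 81 cytosolic ribosomal protein genes 44 rose and 0 fell, with a median of 0.18, but 11 were kept without any 1 library. The rises numbered 27 without vehicle replicate 1, 11 without vehicle replicate 2 and 12 without dDAVP replicate 2. Their summed level was 16394 to 18114 CPM with vehicle and 18888 to 20247 CPM with dDAVP. Rpl13a was at 220.1, 195 and 239 CPM with vehicle and 268, 280.4 and 260.4 CPM with dDAVP (0.31 ± 0.07) and Rps2 at 242, 229 and 259.8 and 288, 312 and 287 CPM (0.28 ± 0.05). Vehicle replicate 2, the library that stood apart on the second component, had the lowest value of both genes. Many processed pseudogenes copy these genes, so their counts are uncertain. Of 26 heat shock proteins and chaperones 4 rose and 1 fell, DESeq2 called 8 higher, the falls numbered 2 without vehicle replicate 2 and 0 without vehicle replicate 3, and Hspa1b went from 227, 197 and 219 to 268, 249.7 and 248 CPM (0.25 ± 0.05). Of 25 BCL2 family genes and death ligands 3 rose and 2 fell, and without vehicle replicate 2, 1 rose and 1 fell. The falls numbered 4 without vehicle replicate 3 or dDAVP replicate 1 and 5 with the control siRNA libraries alone. The BH3-only genes Bmf (0.17 ± 0.04) and Pmaip1 (-0.38 ± 0.07) moved in opposite directions. Of 15 mitochondrially encoded RNAs 1 rose and 0 fell. Without dDAVP replicate 1, 6 rose, and in each of the 5 other fits without 1 library 0 rose.

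Several of the largest changes lay outside the lists. B3gnt7, a glycosyltransferase of keratan sulphate, rose from 5.05, 5.84 and 5.87 CPM to 37.0, 32.4 and 33.9 CPM (2.63 ± 0.10, adjusted p = 5.48e-12) and Nipal1, a magnesium transporter, from 7.05, 6.20 and 6.44 to 36.0, 29.6 and 30.5 CPM (2.28 ± 0.08). Chil1, a chitinase-like secreted protein, rose from 0.266, 0.255 and 0.309 to 2.13, 1.45 and 1.44 CPM (2.58 ± 0.33). Among the falls, Antxr1, a collagen-binding receptor, went from 11.4, 9.11 and 10.37 to 3.40, 3.55 and 3.79 CPM (-1.52 ± 0.13) and Rasl11a, a small GTPase, from 12.2, 10.8 and 11.6 to 5.05, 4.31 and 5.59 CPM (-1.22 ± 0.12). St6gal1, a sialyltransferase, fell from 60.3, 64.1 and 62.7 to 31.1, 31.9 and 30.9 CPM (-0.99 ± 0.05) and Mme, the endopeptidase neprilysin, from 29.2, 31.2 and 26.3 to 16.3, 15.0 and 13.9 CPM (-0.94 ± 0.07). The receptor kinase Ros1 (-1.04 ± 0.21), the kidney progenitor factor Osr1 (-0.94 ± 0.17) and the corepressor Cbfa2t3 (-0.90 ± 0.11) also fell. So did Ccdc141 (-1.05 ± 0.22), Flrt3 (-0.94 ± 0.19), Masp1 (-1.08 ± 0.15), Myo3b (-1.18 ± 0.22) and Trabd2b (-1.05 ± 0.16). By difference in CPM, Sh3pxd2a, a podosome scaffold, rose from 528, 544 and 532 to 811, 785 and 777 CPM, Mal2, of apical trafficking, from 1347, 1280.2 and 1311 to 1664, 1667 and 1633 CPM, and Sptan1, spectrin alpha, from 1045, 1096 and 1067 to 1334, 1313 and 1297 CPM. Eef1a1, a translation elongation factor, rose from 3963, 3818 and 4084 to 4349.6, 4538 and 4340.3 CPM (0.16 ± 0.03), and Tubb5, a beta tubulin, fell from 1237.8, 1279 and 1358 to 1068, 1127 and 1104 CPM (-0.23 ± 0.04); both have processed pseudogenes, so reads may be shared. Bicc1, an RNA-binding protein mutated in cystic kidney, fell from 1198, 1241 and 1171 to 992, 967 and 954 CPM (-0.31 ± 0.04) and Cd24a from 1257, 1237.6 and 1255 to 1023, 1135 and 1109 CPM (-0.20 ± 0.04).

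Transcript models were tested as well, with far fewer calls. On simulated data their test recovered fewer of the 2-fold changes than the gene test did. There the least abundant model of a gene was changed, while genes for the gene test were drawn at random. The transcript test also made slightly more false calls there than its threshold allows. The simulation gave every model the same spread and no error in dividing reads, so its rate of false calls does not carry over to these data. Of 53174 models, 272 changed (0.512%), 173 higher (0.325%) and 99 lower (0.186%). They belonged to 261 genes, and 246 of the 272 lay in genes called in the same direction while 26 lay in genes that were not called. With the control siRNA libraries alone the count was 96, and it lay between 159 and 179 without any 1 of them. The Pde4b change was carried by 1 model, NM_001177980, with all of the gene's counts in each vehicle library and in dDAVP replicate 3, and 98.6% and 97.4% in dDAVP replicates 1 and 2 (adjusted p = 7.31e-06). Pde4d (adjusted p = 0.622) and Crem (adjusted p = 0.89) showed no called change in the use of their models, whose shares varied widely between libraries.

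Use of models within a gene changed in 85 of 8822 genes with at least 2 tested models (0.964%). The count was 36 without dDAVP replicate 1, 51 without vehicle replicate 2 and 34 with a replicate block. On simulated data this test made more false calls than its threshold allows, so single genes below are less certain than their p-values state. A shift in a gene whose total was not called was in Kif23, a kinesin of cytokinesis, at 220.3, 236 and 219.6 CPM with vehicle and 200.5, 215 and 214 CPM with dDAVP (adjusted p = 0.0594, or 0.0374 in DESeq2 and 0.0434 with a replicate block, which both call it). Its model XM_006511452 held 21.7%, 15.9% and 19.1% of the counts with vehicle and 54.0%, 55.4% and 40.1% with dDAVP, while XM_030244619 went from 23.1%, 33.5% and 24.3% to 1.2%, 0.9% and 1.5% (adjusted p for the gene = 0.000158). In the test of single transcript models, XM_006511452 was called (adjusted p = 0.00333) and XM_030244619 was not (adjusted p = 0.0684). In Zbtb25, a zinc finger gene, XM_006515399 had 0.0% in each vehicle library and 43.0%, 53.2% and 44.3% with dDAVP (adjusted p for the gene = 0.000252). In Hoxa3, a homeobox gene, XM_017321404 went from 0.0% to 26.3%, 31.9% and 33.8% (adjusted p for the gene = 4.83e-06). The test of single transcript models did not call XM_017321404 (adjusted p = 0.211). These 3 genes were called in each of the 10 alternatives run for model use. In others, such as Xrcc1, the shares differed as much within a group as between groups, with NM_009532 at 17.6%, 0.0% and 73.5% in the dDAVP libraries, and it was called in 3 of the 10 alternatives. These are mostly predicted models, and estimated counts divide reads among models that share exons.

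Whether the response depended on the siRNA was tested as the difference of the dDAVP responses, and 5 of 15932 genes passed (0.0314%). All 5 responded less with TAZ siRNA. Slc39a4 rose by 1.93 with control siRNA and by 1.40 with TAZ siRNA (difference -0.53 ± 0.07, adjusted p = 0.00374). For Abcc3 the changes were 1.32 and 0.60 (difference -0.72 ± 0.09, adjusted p = 0.00374) and for Cxcl5 they were 1.69 and 0.46 (difference -1.23 ± 0.17, adjusted p = 0.032). With vehicle, Cxcl5 was higher with TAZ siRNA (17.2, 27.1 and 20.6 CPM) than with control siRNA (11.5, 13.7 and 11.4 CPM). With dDAVP it was lower with TAZ siRNA (29.5, 31.6 and 28.3 CPM) than with control siRNA (39.8, 39.0 and 38.8 CPM). Col4a4 fell by 0.78 with control siRNA and changed by -0.37 with TAZ siRNA (difference 0.41 ± 0.05, adjusted p = 0.00374). For Col4a1, the chain that pairs with Col4a2, the changes were -0.64 and -0.35 (difference 0.29 ± 0.05, adjusted p = 0.044). The difference of Col4a1 missed the threshold in 9 of the 12 fits that left out 1 library, at adjusted p-values up to 0.165, with a replicate block (0.0631) and with DESeq2 size factors (0.0558), while that of Cxcl5 missed it in 7 of the 12, at up to 0.15. The count depended on the tool and on single libraries: it was 87 in DESeq2, 10 without control siRNA vehicle replicate 1, control siRNA dDAVP replicate 1 or TAZ siRNA dDAVP replicate 2, 16 without TAZ siRNA vehicle replicate 1, and 3 without control siRNA vehicle replicate 3, control siRNA dDAVP replicate 3 or TAZ siRNA dDAVP replicate 1. Wwtr1, which encodes TAZ, was at 179, 186 and 177 CPM with vehicle and 174, 161 and 164 CPM with dDAVP in the control siRNA libraries and was not called (adjusted p = 0.113), except in a fit of those 6 libraries alone (0.0313).

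**Figure D5:**
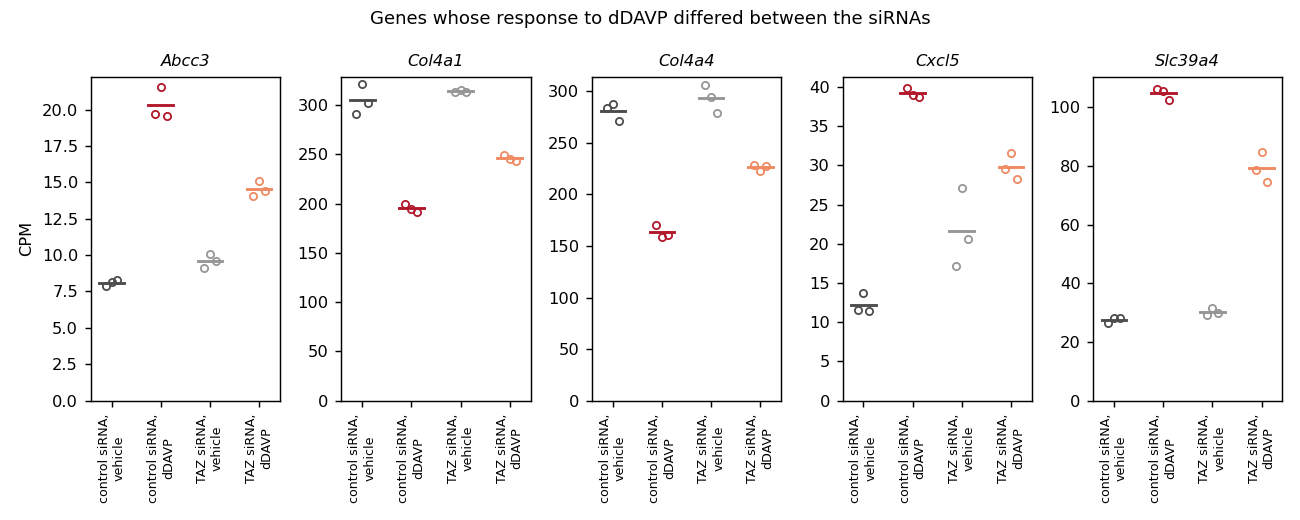
Level of the 5 genes whose response to dDAVP differed between the siRNAs (y axis, CPM, from 0) in the 12 libraries, with 1 point per library and the mean of 3 as a bar. With control siRNA the step from vehicle to dDAVP is larger in each of the 5 genes, as for Slc39a4 from 26.3 to 28.1 CPM up to 102 to 106 CPM, against 29.0 to 31.6 and 74.5 to 84.9 CPM with TAZ siRNA.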

How the data were processed

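RNA was sequenced from 12 libraries, of which the 6 with control siRNA are compared here. The labels' protocols name 2 kits, TruSeq RNA and TruSeq Stranded mRNA. Bowtie 0.12.2 and the builds mm8 and mm10 are named, without their roles, per the submitters' processing notes. The counting tool, its use of strand and its treatment of reads shared by similar genes are not given in the sources used here. Antisense, overlapping and near-identical genes are therefore uncertain. The authors deposited estimated counts for genes and transcript models as whole numbers, and TPM for genes, per the file headers. The design had assumed read counts, and the count test was kept. A further 36 per-sample columns were left unused.

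Analysis used R 4.3.3, edgeR 4.0.16, limma 3.58.1 and DESeq2 1.42.0. Genes passing filterByExpr (minimum count 10, on the 4 groups) were scaled by TMM and fitted by robust quasi-likelihood with 1 mean per group over all 12 libraries. The coefficient of biological variation was 5.11%. SE was derived as the size of the log2 change over the square root of F. A count of 3 in 1 control siRNA library is 0.0494 to 0.0637 CPM. Counting intervals cover counting error only, and a floor covers that of the vehicle counts only. Replicate libraries differed by more than sampling noise in every pair of a group, at a chi-square of at least 4.09 per degree of freedom. Transcript models were fitted likewise and their use within genes was tested with diffSpliceDGE. The tests were run on simulated data with known changes first. There the test of model use, and by a smaller margin that of transcript models, made more false calls than its threshold allows. Both recovered fewer of the 2-fold changes than the gene test did. The simulated models had the same spread throughout and no error in dividing reads, and the least abundant model of a gene was changed. These rates therefore do not carry over to the real models.

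A call is stable if it was also made, in the same direction, by DESeq2, limma-voom and each of 6 fits without 1 control siRNA library, at 1 CPM or more in the higher group. Named are Aqp2, Avpr2, Scnn1a and Wwtr1, the 20 stable rises and 20 stable falls with the largest log2 change, the 8 of each with the largest CPM difference, up to 4 stable calls and the most abundant uncalled member of each list, and up to 10 genes each for model use and siRNA difference. The comparison, gene lists and members were chosen with earlier results of these data known, so lists are described by counts and medians beside those of all genes, with no test. Alternatives were other scalings, filters and tools, the control siRNA libraries alone, a replicate block and leaving out each library.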

Additional observations from a re-analysis of the deposited data

Results flagged for a closer look

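The response to dDAVP differed between the control siRNA and the TAZ siRNA in 5 of 15932 genes by the edgeR test of the difference itself. Given as the response with TAZ siRNA minus that with control siRNA, on the log2 scale with 3 libraries per group, the difference was -1.23 ± 0.17 for Cxcl5, -0.72 ± 0.09 for Abcc3 and -0.53 ± 0.07 for Slc39a4, which all rose with control siRNA. It was 0.41 ± 0.05 for Col4a4 and 0.29 ± 0.05 for Col4a1, which both fell with control siRNA.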

How the results depend on the processing

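The counts of genes changed, higher, lower and past 2-fold stayed within 1.5 times their values under each alternative run: DESeq2 size factors in edgeR, no low-count filter, DESeq2, limma-voom, the control siRNA libraries alone, a replicate block and leaving out 1 library. Totals ran from 2103 to 3342 genes. Leaving out 1 control siRNA library gave 2103 to 2685 genes in all, 1059 to 1426 higher, 1044 to 1265 lower, 137 to 166 raised and 30 to 47 lowered at least 2-fold. Between 65.9% and 80.4% of the 3058 genes were called again without 1 library, against 98.3% in DESeq2 and 95.8% in limma-voom. Transcript models called numbered 96 with the control siRNA libraries alone and 159 to 179 without 1 library, and genes with changed model use 36 to 71. Genes whose response differed between the siRNAs numbered 87 in DESeq2, 12 with no low-count filter and 3 to 16 without 1 library. The cause was not tested. Direction was followed for the named genes and the siRNA differences only, and none of those called in the main fit changed direction. Of the values of named genes under alternatives, 2847 were counted as unchanged, 22 lost the call and 12 gained one. Genes named as stable calls had been picked for keeping call and direction in DESeq2, limma-voom and each fit without 1 control siRNA library. Their values in those fits were therefore unchanged by choice and say nothing of other genes. In genes not called in the main fit, a change of direction also counted as unchanged, as did a value without an adjusted p.

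Replicate numbers are shared between the groups, but deviations of same-numbered libraries correlated at 0.0614, 0.0317 and 0.0406, so the numbers were not taken to pair samples, although each vehicle library correlated best with the dDAVP library of its own number. With a replicate block, 2983 genes, 157 transcript models, 34 genes with changed model use and 6 siRNA differences were called.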
